A study of Coptotermes formosanus x Coptotermes gestroi and Coptotermes formosanus and Coptotermes gestroi with 67 samples.

Results

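Workers of 2 subterranean termites, Coptotermes gestroi and Coptotermes formosanus, were compared shortly before they molted. The pre-molt samples of both species were taken by their labels, which gave 11 of the 67 samples of the series, 5 from C. gestroi and 6 from C. formosanus. Each species gave a head and a gutless body, that is thorax plus abdomen, as separate libraries. The series also holds 2 hybrids between these species, Hybrid F and Hybrid G, and workers taken after a molt and between molts. No treatment, age or colony is given for any group, and the labels do not say whether heads and bodies came from the same workers. The columns of the samples of a group held the same value in every gene (0 genes differed), so each group is 1 profile and the comparison rests on 4 profiles, a head and a body of each species. No spread between workers or colonies could be measured.

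The 4 profiles held 29874089 counts in the C. gestroi head, 19497806 in the C. gestroi body, 36803187 in the C. formosanus head and 38338701 in the C. formosanus body. Divided by the number of columns of the group, 2 for the C. gestroi body and 3 for the others, these totals were 9958030, 9748903, 12267729 and 12779567 in the same order. Whether each column holds the sum over the samples of its group, copied to all of them, is not stated, so counts and floors are those of a profile and may not be those of 1 library. Levels are given in CPM, the counts of a gene as a share of all counts. A count of 0 allows up to 3 counts, which came to between 0.0783 and 0.154 CPM in these profiles before scaling and covers counting error only. The table gave genes as IDs without names, 12000 with a Cfor number and 3949 with a BGI_novel number among 15950, so no function can be attached to any gene and head and body could not be checked against marker genes. It held NA in 1445 and 1984 genes of the C. gestroi head and body and in 1272 and 1455 genes of the C. formosanus head and body, and NA was read as no reads. In each tissue of each species, the genes with NA before the molt were the same as those with NA between molts. The sources used here do not give the genome or annotation behind the counts, so expression and the assignment of each species' reads cannot be told apart.

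An insect grows by shedding its cuticle. Steroid hormones, the ecdysteroids, start the molt, and the epidermis then parts from the old cuticle and lays down a new one rich in chitin before the old one is shed. Termite workers keep molting through life, stop feeding and empty the gut before each molt, and are controlled with baits that block the making of chitin. C. gestroi and C. formosanus are both invasive pests of wood and interbreed where their ranges meet.

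Before the molt the species differed in 1963 of 12855 genes tested (15.3%), by a fit over both tissues with tissue as a block (edgeR quasi-likelihood test, adjusted p under 0.05). C. gestroi was higher in 841 genes (6.54%) and lower in 1122 (8.73%). The median log2 fold change of C. gestroi over C. formosanus was 1.95 among the genes called higher and -2.48 among those called lower, against -0.03 over all genes tested. The excess of lower genes depended on which genes were tested. With at least 10 counts required in each profile, 1205 genes were called higher and 1205 lower. With genes with NA left out the numbers were 945 and 1062, and with no filter on counts they were 1056 and 1351. The cause was not tested. The fit has 1 residual degree of freedom, and a gene's error is the part of its species difference that differs between head and body, moderated over genes. Head and body had the same sign in 841 of the 841 genes called higher and in 1120 of the 1122 called lower, which the test favours, and p measures that agreement, not the spread between workers. The count depended on single profiles: a fit over 12 profiles of both species at all 3 stages called 2680 genes for the same contrast, but 451 without the pre-molt C. formosanus body, 649 without its head, 865 without the pre-molt C. gestroi body and 1806 without its head.

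Sizes were also read per tissue, as log2 ratios of CPM with a prior count of 2. The ratio had the same sign in head and body in 10140 genes (78.9%), and across genes, which are not independent, the ratios of both tissues had r = 0.79. C. gestroi was at least 4-fold higher in both tissues in 488 genes (3.8%) and at least 4-fold lower in both in 826 (6.43%). Of these, 354 and 587 were also called by the test. Past 16-fold in both tissues C. gestroi was higher in 129 genes and lower in 301, and past 64-fold it was higher in 46 and lower in 74. With genes left out that had NA in any of the 4 profiles, the 4-fold counts were 357 higher and 482 lower.

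**Figure D1:**
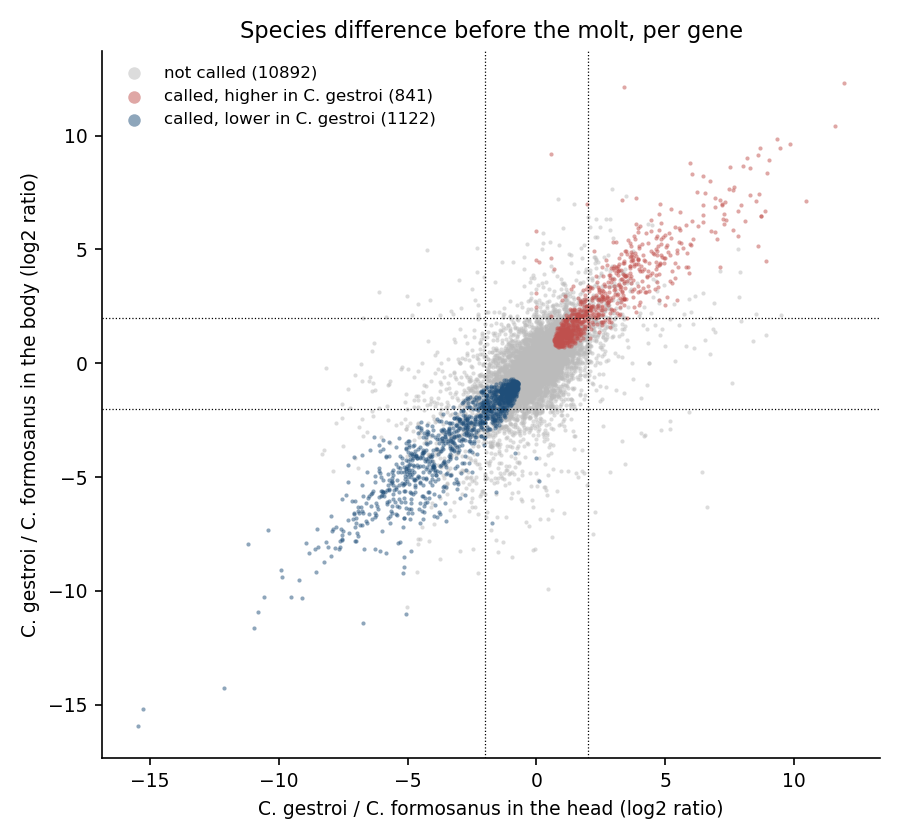
Log2 ratio of C. gestroi over C. formosanus before the molt in the head (x axis) and the body (y axis), 1 point per gene, with dotted lines at 4-fold. Colours mark the 841 genes called higher and the 1122 called lower in C. gestroi, and the lower arm reaches farther. The median absolute gap between the head and body ratios was 0.38 and 0.42 in these genes, against 0.42 over all genes tested. The test favours genes whose gap is small beside their species difference.

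Among called genes with 10 or more counts in each profile and 3 or more in mean log2 CPM, the largest increases in C. gestroi were set off by a near absence in C. formosanus. BGI_novel_G001574 stood at 1312 CPM in the C. gestroi head and 2333 in its body, against 0.264 and 0.388 CPM in the C. formosanus head and body, values that rest on about 10 and 14 counts. Its log2 fold change was 12.41 ± 0.44 (SE, edgeR adjusted p = 0.013). BGI_novel_G001610 stood at 866.0 and 1448 CPM in C. gestroi head and body, against 2.90 and 2.75 CPM in C. formosanus, and the log2 fold change was 8.63 ± 0.43 (SE, edgeR adjusted p = 0.013). Before the molt both genes were abundant in each C. gestroi profile and at 2.90 CPM or less in C. formosanus. At the other stages BGI_novel_G001610 stood between 0 and 49.6 CPM in C. gestroi and at 0 CPM in C. formosanus.

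Cfor_05466 had 295.0 and 495.5 CPM in C. gestroi head and body, against 3.06 and 2.75 CPM in C. formosanus. Its log2 fold change was 7.04 ± 0.37 (SE, edgeR adjusted p = 0.013). Cfor_03984 had 97.2 and 122.0 CPM in C. gestroi, against 0.555 and 1.22 CPM in C. formosanus, a log2 fold change of 7.003 ± 0.31. For BGI_novel_G002418 the C. gestroi head was at 360.9 and the body at 137.7 CPM, against 2.30 and 1.61 CPM in C. formosanus, a log2 fold change of 6.87 ± 0.35 (with edgeR adjusted p = 0.013 for this gene and for Cfor_03984). The species did not overlap in any of these 5 genes, which follows largely from choosing them for the largest fold changes. In the 12-profile fit without the pre-molt C. gestroi body, the C. formosanus head or the C. formosanus body, the edgeR adjusted p of BGI_novel_G001610 was 0.0735, 0.109 and 0.108 and that of Cfor_03984 was 0.0628, 0.138 and 0.146. Without the C. gestroi head it was 0.0589 for Cfor_03984, and BGI_novel_G002418 had 0.0569 without the C. formosanus head and 0.0700 without the C. formosanus body.

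The most abundant genes called higher in C. gestroi and at least 4-fold higher in both tissues were, by mean CPM in C. gestroi, Cfor_09912, Cfor_12027, Cfor_03793 and, described above, BGI_novel_G001574. Cfor_12027 stood at 4537 and 4418 CPM in C. gestroi head and body, against 783.6 and 801.1 CPM in C. formosanus, which gave a log2 fold change of 2.50 ± 0.33 (SE, with edgeR adjusted p = 0.030). Head and body were nearly level within each species. Cfor_09912 stood at 1919 and 8876 CPM in C. gestroi head and body, against 367.5 and 1494 CPM in C. formosanus, and its log2 fold change was 2.48 ± 0.34 (SE, edgeR adjusted p = 0.032). The body was the higher tissue in both species, and the C. formosanus body came close to the C. gestroi head. Cfor_03793 stood at 1926 and 2698 CPM in C. gestroi, against 419.6 and 598.9 CPM in C. formosanus, and C. gestroi was higher by a log2 fold change of 2.18 ± 0.29 (SE, with edgeR adjusted p = 0.030). The calls of Cfor_12027 and Cfor_03793 held in the 12-profile fit (edgeR adjusted p = 0.0336 and 0.0386), and that of Cfor_09912 did not. In the 12-profile fit the adjusted p of Cfor_09912 was 0.288, and with 1 pre-molt profile left out it was between 0.426 and 0.607. The adjusted p of Cfor_12027 was 0.111 and 0.0948 without the C. gestroi head and body and 0.154 and 0.199 without the C. formosanus head and body. That of Cfor_03793 was 0.0641, 0.191, 0.209 and 0.138 in the same order.

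Among the genes lower in C. gestroi with 10 or more counts in each profile and 3 or more in mean log2 CPM, BGI_novel_G001613 had the largest fold change. It stood at 2.52 and 4.46 CPM in C. gestroi head and body, against 356.0 and 521.7 CPM in C. formosanus, and its log2 fold change was -7.005 ± 0.27 (SE, edgeR adjusted p = 0.013). BGI_novel_G003610 had 1.21 and 1.64 CPM in C. gestroi, against 83.2 and 97.1 CPM in C. formosanus (log2 fold change -5.997 ± 0.21). Cfor_11986 had 7.63 and 4.86 CPM in C. gestroi, against 186.4 and 117.2 CPM in C. formosanus (log2 fold change -4.60 ± 0.19, edgeR adjusted p = 0.013 for both genes). Over these 3 genes the C. gestroi profiles reached 7.63 CPM at most, and those of C. formosanus stood at 83.2 CPM or more.

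For BGI_novel_G002129 the C. gestroi head was at 86.4 and the body at 21.5 CPM, against 1320 and 1605 CPM in C. formosanus, and its log2 fold change was -5.07 ± 0.80 (SE, edgeR adjusted p = 0.045). BGI_novel_G002385 had 3.90 and 3.81 CPM in C. gestroi, against 47.5 and 164.8 CPM in C. formosanus, and its log2 fold change was -4.49 ± 0.58 (SE, edgeR adjusted p = 0.038). BGI_novel_G003159, abundant in both species, had 63.3 and 243.1 CPM in C. gestroi, against 349.2 and 1788 CPM in C. formosanus, and a log2 fold change of -2.67 ± 0.28 (SE, with edgeR adjusted p = 0.024). The species did not overlap in these genes, which were chosen for differences of at least 4-fold in both tissues. The bodies of both species were above their heads in BGI_novel_G003159, and its C. gestroi body came near the C. formosanus head. In the 12-profile fit the adjusted p of BGI_novel_G002129 was 0.0553. With the C. gestroi head, C. gestroi body, C. formosanus head or C. formosanus body left out, it was 0.139, 0.250, 0.0995 and 0.191 for BGI_novel_G002129 and 0.0654, 0.123, 0.103 and 0.0883 for BGI_novel_G003159. For BGI_novel_G002385 it was 0.0688 and 0.0586 without the C. formosanus head and body, and for BGI_novel_G001613 it was 0.0534 without the C. formosanus body.

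**Figure D2:**
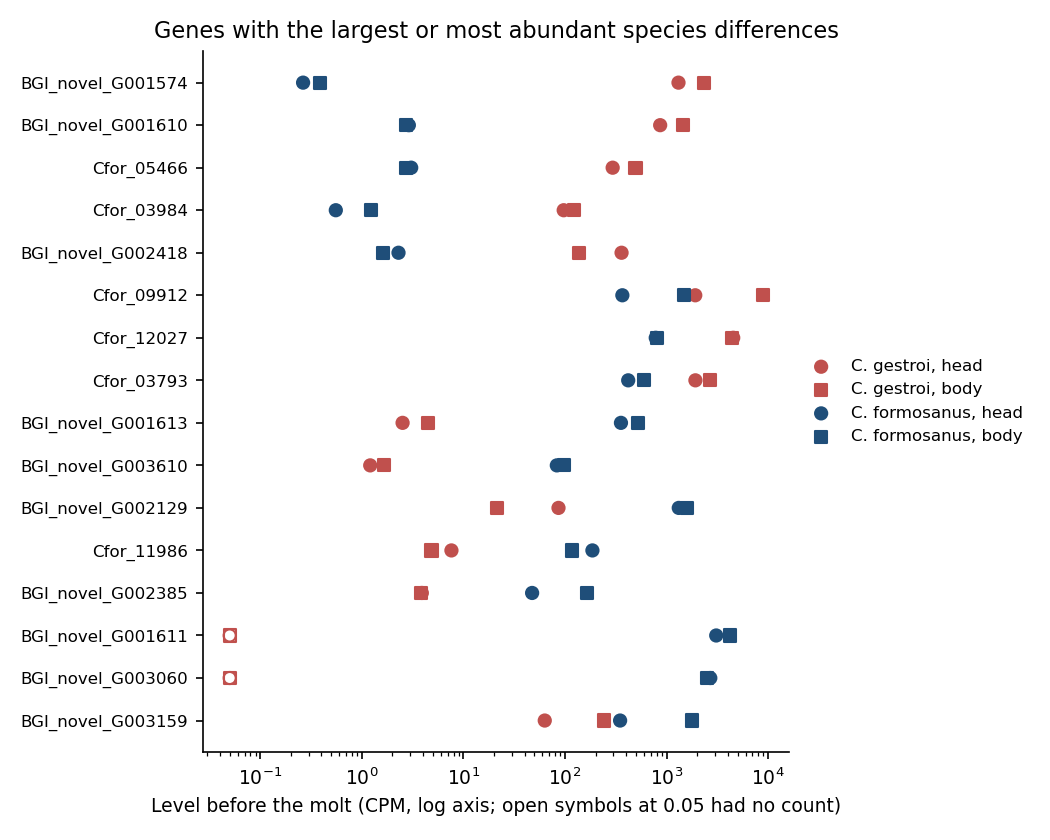
Level before the molt (CPM, log axis) of the 16 genes named for the largest fold changes or the highest levels, with C. gestroi in red and C. formosanus in blue, heads as circles and bodies as squares, 1 profile each. Open symbols mark BGI_novel_G001611 and BGI_novel_G003060, which had no count in C. gestroi. Cfor_09912 is the gene whose species come closest, at 1919 CPM in the C. gestroi head and 1494 CPM in the C. formosanus body.

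Some genes were counted in 1 species and not in the other. With at least 10 counts in head and body of 1 species and none in the other, 86 genes were counted in C. gestroi alone and 252 in C. formosanus alone. The C. gestroi body held 19497806 counts and 1984 genes with NA, against 38338701 and 1455 in the C. formosanus body. These numbers of genes were not adjusted for that, and its part in them was not tested. The table held NA in both profiles of the species without counts in 56 of the 86 genes and 179 of the 252. Most had BGI_novel numbers, 70 of 86 and 229 of 252. At the other stages too, the species without counts had none in 43 of the 86 genes and 154 of the 252, where a gene with NA before the molt also had NA between molts. Their levels were mostly low, with a median of 2.74 CPM in C. gestroi and 2.13 CPM in C. formosanus, but a few were abundant. The abundant genes named next were picked for having no count in 1 species, so their adjusted p adds no separate support. With no count in 1 species, p does not measure agreement between head and body. All of them had NA in 1 or both profiles of the species without counts. Each least fold given for them holds only if NA means no reads.

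BGI_novel_G001611 had no count in C. gestroi and stood at 3087 and 4224 CPM in C. formosanus head and body. Against a floor of 3 counts over both C. gestroi profiles it was at least 54614-fold lower in C. gestroi (edgeR adjusted p = 0.016). BGI_novel_G003060, also without a count in C. gestroi, stood at 2698 and 2522 CPM in C. formosanus, so C. gestroi was at least 39178-fold lower. It had no count in C. gestroi at the other stages either, where C. formosanus had between 1328 and 4992 CPM. BGI_novel_G001612 stood at 301.9 and 1350 CPM in C. formosanus (at least 12192-fold lower in C. gestroi) and Cfor_11568 at 135.8 and 213.7 CPM (at least 2606-fold lower). The edgeR adjusted p was 0.016 for BGI_novel_G003060, 0.015 for BGI_novel_G001612 and 0.013 for Cfor_11568.

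In the other direction, Cfor_11740 stood at 210.6 and 94.0 CPM in C. gestroi head and body and had NA in both C. formosanus profiles. With NA read as 0, it was at least 4216-fold higher in C. gestroi (edgeR adjusted p = 0.013). After the molt it stood at 194.5 and 41.9 CPM in C. gestroi head and body, and at 13.1 and 4.31 CPM in C. formosanus. BGI_novel_G000505 stood at 62.7 and 53.9 CPM in C. gestroi and had no count in C. formosanus at any stage, at least 1472-fold higher before the molt (edgeR adjusted p = 0.015). BGI_novel_G001493 stood at 94.4 CPM in the C. gestroi head and 9.45 in the body, at least 1616-fold higher (edgeR adjusted p = 0.015). BGI_novel_G001359 was nearly a body gene, at 0.638 CPM in the C. gestroi head and 304.7 in the body, at least 2552-fold higher over both tissues (edgeR adjusted p = 0.015). Its log2 ratio was 3.38 in the head, on about 19 counts in C. gestroi, and 12.13 in the body. In the 12-profile fit its adjusted p was 0.0788, and 0.130, 0.138, 0.132 and 0.555 without the C. gestroi head, C. gestroi body, C. formosanus head and C. formosanus body. For BGI_novel_G001493 the values with these profiles left out were 0.0786, 0.0561, 0.127 and 0.111.

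BGI_novel_G001610, BGI_novel_G001611, BGI_novel_G001612 and BGI_novel_G001613 have consecutive numbers and nearly the same length, at 1061, 1046, 1016 and 998 bases. They were set side by side after their values were seen. C. gestroi was higher in BGI_novel_G001610 and lower in the other 3. Summed over the 4 IDs, C. gestroi had 868.5 CPM in the head and 1452 in the body, against 3748 and 6098 CPM in C. formosanus, so the sum was lower in C. gestroi by log2 ratios of -2.11 in the head and -2.07 in the body. Expected counts share out reads that match several genes, so the values of single IDs are uncertain if these are near-identical copies, which the table does not show.

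The differences fell unevenly over the 2 kinds of ID. Of 3351 BGI_novel genes tested, 297 (8.86%) were called higher and 554 (16.5%) lower in C. gestroi, against 5.72% and 5.98% of the 9503 tested genes with Cfor numbers. By size, 9.28% of BGI_novel genes passed 4-fold upward and 19.5% downward in both tissues, against 1.86% and 1.82% of Cfor genes. The median log2 fold change was -0.42 in BGI_novel genes and 0.02 in Cfor genes. The median length was 2019 bases in genes called higher in C. gestroi and 3539 in those called lower, against 2998 over all genes tested. The part of annotation and read assignment in these numbers was not tested.

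Opposite directions in head and body were also counted. At least 4-fold opposite ratios were found in 35 of 12855 genes (0.272%), 15 with C. gestroi higher in the head and 20 with it lower there. Of these, 2 had a mean log2 CPM of at least 3. Cfor_08001 stood at 44.3 CPM in the C. gestroi head, against 219.5 in the C. formosanus head, and at 1953 CPM in the C. gestroi body, against 119.8 in the C. formosanus body. At the other stages the body difference ran the other way, with 239.0 CPM in C. gestroi bodies and 6773 in C. formosanus bodies after the molt, and 14.1 and 3457 CPM between molts. Cfor_11675 stood at 0.470 CPM in the C. gestroi head, against 4.99 in the C. formosanus head, and at 223.4 CPM in the C. gestroi body, against 49.6 in the C. formosanus body. A test of whether the species difference differs between head and body, with the 3 stages as replicates, called 0 of 13561 genes (0%, edgeR, 693 at an unadjusted p under 0.05), and gave adjusted p of 1 for Cfor_08001 and 0.416 for Cfor_11675.

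The direction of a difference seen before the molt mostly recurred in the profiles of the other stages, which the pre-molt test did not use. Of the 841 genes called higher, C. gestroi was also higher after the molt in 96.3% in the head and 94.6% in the body, and between molts in 92.9% and 87.6%. Of the 1122 called lower, it was also lower in 96.3% and 97.0% after the molt and in 94.7% and 92.2% between molts. Over all tested genes between 47.0% and 51.0% had the sign in question. Of the 1963 called genes, 1649 had no NA in the 4 pre-molt profiles. A profile with NA before the molt also had NA between molts, read as 0 both times. For genes with NA the recurrence between molts is thus partly built in, and this also holds for the 4-fold counts below. Of the 488 genes at least 4-fold higher in both tissues before the molt, 275 passed 4-fold in both tissues at all 3 stages, as did 491 of the 826 that were lower. The other stages gave 502 higher and 821 lower genes after the molt and 532 and 814 between molts. Genes shared with the pre-molt list were 66.9% of the higher and 74.8% of the lower genes after the molt, and 59.0% and 70.0% between molts. They were 68.9% and 74.3% of the pre-molt lists for the comparison after the molt and 64.3% and 69.0% for that between molts.

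Some named genes held their species difference through the cycle. BGI_novel_G003610 stood between 0.641 and 1.37 CPM in the other C. gestroi profiles and between 80.1 and 123.8 CPM in the other C. formosanus profiles. BGI_novel_G001574 stood between 384.0 and 1372 CPM in C. gestroi and between 0 and 0.333 CPM in C. formosanus at these stages, and Cfor_05466 between 217.0 and 474.9 CPM in C. gestroi and between 2.57 and 4.48 CPM in C. formosanus. Others were abundant only before the molt among these profiles. Cfor_12027 was at most 4.22 CPM in C. gestroi and at most 0.591 CPM in C. formosanus at the other stages. BGI_novel_G002129 was at most 3.47 CPM in C. gestroi and at most 2.36 CPM in C. formosanus, and BGI_novel_G003159 at most 0.352 and 0.784 CPM. BGI_novel_G001611 had no count in C. gestroi at any stage, and in C. formosanus it stood at 82.7 CPM in the head and 15.0 in the body after the molt and at 0.147 and 0 CPM between molts.

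**Figure D3:**
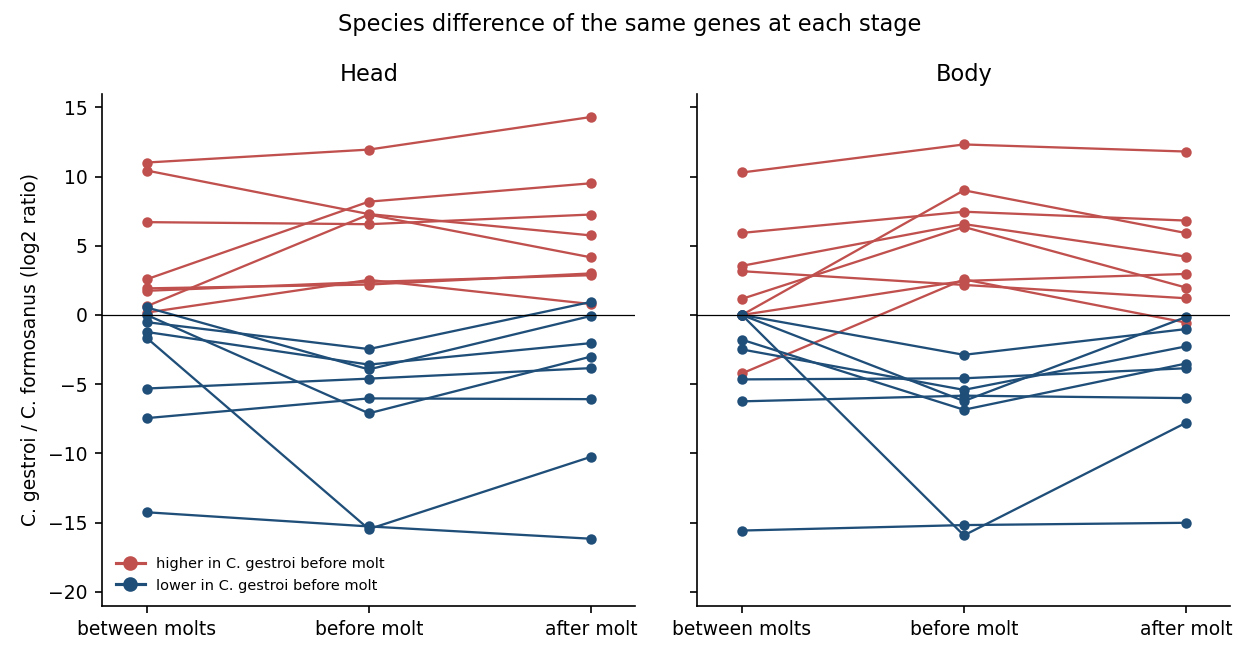
Log2 ratio of C. gestroi over C. formosanus between molts, before the molt and after it, in heads (left) and bodies (right), for the 16 genes named for fold change or level, 1 line per gene. Red lines are genes higher and blue lines genes lower in C. gestroi before the molt; Cfor_09912 in the inter-molt body, at a log2 ratio of -4.22, is the red point farthest below 0.

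Whether a species difference was larger or smaller before the molt than at the other stages was tested over 12 profiles, with heads and bodies as replicates (5 residual degrees of freedom). No gene out of 13561 passed in edgeR (0 called, 0%), although 716 had an unadjusted p under 0.05, and the smallest adjusted p was 0.299. DESeq2 called 114 genes with the same contrast. The count of 0 does not show that such genes are absent. With a tissue term for each stage edgeR also called 0 genes, with a smallest adjusted p of 0.0668, and without the inter-molt C. formosanus head it called 3.

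Genes of the pre-molt state were taken from the hybrids, whose profiles do not enter the species comparison. In both tissues of both hybrids, 150 genes were at least 16-fold higher before the molt than between molts, the last of them inside at a log2 ratio of 4.001 and the first outside at 3.94. All 150 were tested between the species. C. gestroi was higher in 18 of them (12%, against 6.54% of all genes) and lower in 10 (6.67%, against 8.73%), and the median log2 fold change of the 150 was 0.02. The 18 include Cfor_12614 and Cfor_12703, which share all their counts. This pair, BGI_novel_G001493 and BGI_novel_G000618 had no count in C. formosanus. Among the 10, BGI_novel_G000216 had no count in C. gestroi. The split of 18 and 10 depended on the Hybrid G body pair, its pre-molt and inter-molt profiles, which were not left out singly. Without that pair, a choice made after seeing the data, 290 genes were listed, of which 27 (9.31%) were higher and 35 (12.1%) lower in C. gestroi, with a median log2 fold change of -0.16. The median level of these 290 genes between molts was 3.33 CPM in the Hybrid G body and between 0.280 and 0.948 CPM in the other 7 inter-molt profiles. Among those called higher in the list of 150 were Cfor_12027 and Cfor_03793, described above, and BGI_novel_G001861, at 4003 and 1262 CPM in C. gestroi head and body, against 1198 and 246.9 CPM in C. formosanus (log2 fold change 2.05 ± 0.34, SE, edgeR adjusted p = 0.039). Cfor_02705, also called higher, had 705.4 and 717.9 CPM in C. gestroi, against 159.9 and 97.2 CPM in C. formosanus (log2 fold change 2.51 ± 0.31, SE, edgeR adjusted p = 0.029). Among those called lower were Cfor_09911, at 202.6 and 192.3 CPM in C. gestroi, against 677.8 and 961.4 CPM in C. formosanus (log2 fold change -2.03 ± 0.28, SE, edgeR adjusted p = 0.032), and BGI_novel_G003129, at 321.8 and 345.4 CPM, against 798.3 and 1578 CPM (log2 fold change -1.75 ± 0.34, SE, edgeR adjusted p = 0.047). These 4 were chosen as examples after their values were seen. Another 22 genes were at least 16-fold lower before the molt in all 4 hybrid pairs. Of these, 20 were tested, 0 were called higher and 4 lower in C. gestroi (20%, against 8.73% of all genes), and their median log2 fold change was -2.10. By tissue the median log2 ratio was -1.90 in the head and -0.79 in the body. Some of the 20 were near the floor, such as BGI_novel_G002757, called lower with no count in C. gestroi and 0.528 and 2.22 CPM in C. formosanus head and body. Without the Hybrid G body pair 27 genes were listed and 25 tested, 0 higher and 5 lower.

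**Figure D4:**
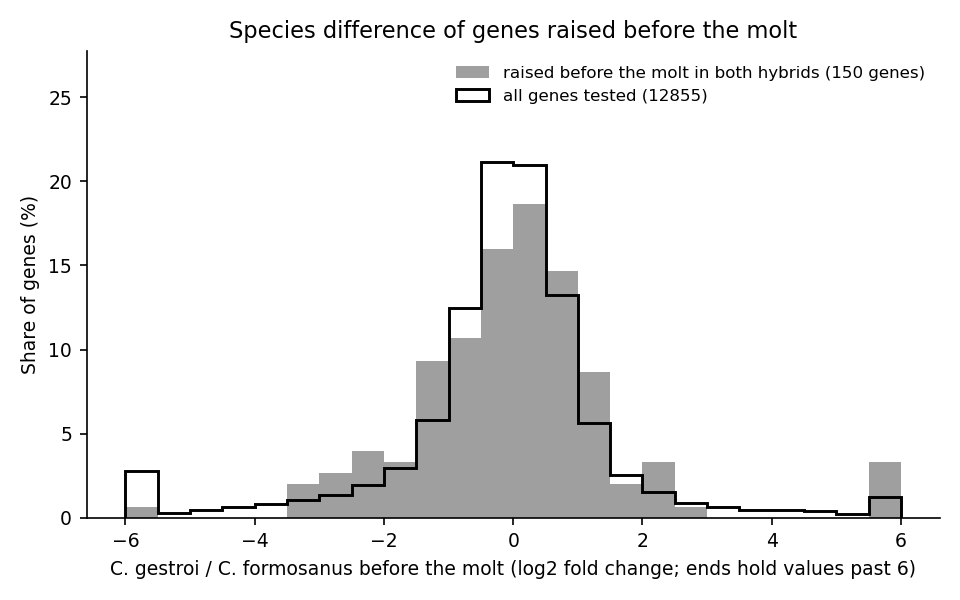
Share of genes (%) by log2 fold change of C. gestroi over C. formosanus before the molt, for the 150 genes raised before the molt in both hybrids (filled) and all 12855 genes tested (line). The medians were 0.02 and -0.03, and -0.16 for a list of 290 genes drawn without the Hybrid G body. The end bins hold values past 6.

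The most abundant genes were also counted. Of the 100 genes with the highest mean level over the 4 profiles, 4 were called higher and 4 lower in C. gestroi. Over all genes 6.54% and 8.73% were called, so the gap is a few genes in each direction. The median absolute log2 fold change was 0.51 in these 100 genes, against 0.63 over all genes tested. The gene with the most counts in each profile was Cfor_09914, with 4.43% of the counts in the C. gestroi head and 8.06% in its body, against 2.63% in the C. formosanus head and 3.23% in its body. Its log2 fold change of 1.19 ± 0.52 did not pass (SE, edgeR adjusted p = 0.18).

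In genes far apart between the species, the hybrids mostly stood between them, which the choice of such genes favours. The share over all tested genes was not measured. For the 354 genes called and at least 4-fold higher in C. gestroi in both tissues, between 80.8% and 92.4% lay between both species in a given hybrid and tissue before the molt, and for the 587 lower ones between 80.7% and 90.6%. On the CPM scale, where 0% is the C. formosanus level and 100% the C. gestroi level, the median hybrid gene lay at 41.4% in Hybrid F heads, 37.0% in Hybrid F bodies, 42.3% in Hybrid G heads and 39.8% in Hybrid G bodies for the genes higher in C. gestroi. For the lower genes the medians were 49.8%, 46.1%, 50.6% and 47.8% in the same order. The place depends on the scale. On the log2 CPM scale with a prior count of 2, where 0 is C. formosanus and 1 is C. gestroi, the medians were 0.705, 0.706, 0.714 and 0.726 for the genes higher in C. gestroi and 0.225, 0.187, 0.225 and 0.197 for the lower ones. Genes higher in C. gestroi thus lay nearer C. formosanus in CPM and nearer C. gestroi in log2 CPM. These genes were chosen for a large difference between the species, and the places are a description.

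Of the genes counted in C. gestroi alone, the median hybrid level was between 34.02% and 43.9% of that in C. gestroi, and of those counted in C. formosanus alone between 44.3% and 49.6% of that in C. formosanus. At least 10 counts were found in a given hybrid and tissue in 65 to 69 of the 86 genes and in 191 to 196 of the 252. BGI_novel_G000505 stood at 24.04 and 29.0 CPM in Hybrid F head and body and at 23.9 and 24.2 CPM in Hybrid G. BGI_novel_G001359 was nearly missing from the hybrid bodies before the molt, at 1.04 CPM in Hybrid F and 1.52 CPM in Hybrid G, against 304.7 CPM in the C. gestroi body. Its hybrid heads, at 0.219 and 0.195 CPM, were at 34.3% and 30.6% of the low level in the C. gestroi head. BGI_novel_G001612 stood at 0.874 to 3.82 CPM in both hybrids, against 301.9 and 1350 CPM in C. formosanus head and body. BGI_novel_G002129 stood at 7.68 to 14.8 CPM in the hybrids, below both species.

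**Figure D5:**
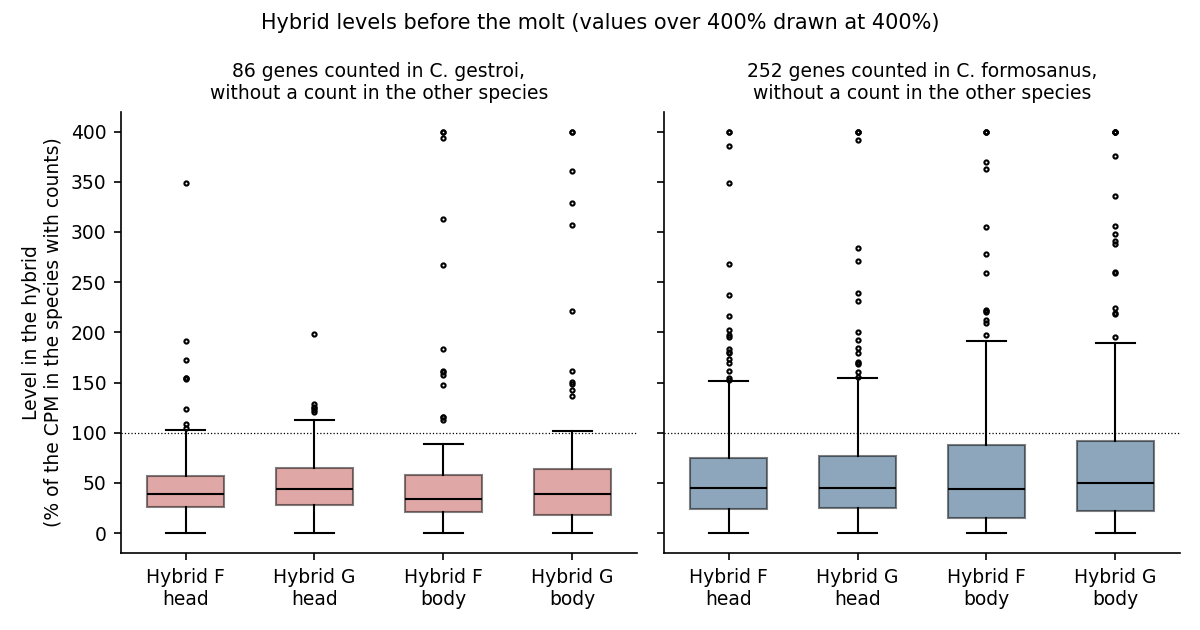
Level in each hybrid before the molt as a percentage of the CPM in the species with counts, for 86 genes counted in C. gestroi alone (left) and 252 counted in C. formosanus alone (right). Boxes span the quartiles with the median as a line, whiskers reach 1.5 box lengths, and medians lie between 34.02% and 49.6%.

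A few genes parted the hybrids. Among the 941 genes called and at least 4-fold apart in both tissues, 5 had Hybrid F within 2-fold of C. formosanus and Hybrid G within 2-fold of C. gestroi in both tissues, and 5 had the reverse. Cfor_05466 stood at 3.19 and 2.51 CPM in Hybrid F head and body and at 280.5 and 260.1 CPM in Hybrid G. Cfor_04911 had 0.0672 and 0.197 CPM in C. gestroi head and body, against 66.4 and 63.6 CPM in C. formosanus, with 53.5 and 43.5 CPM in Hybrid F and 0.0650 and 0.228 CPM in Hybrid G. BGI_novel_G003295 showed the reverse, with 0.168 and 0.131 CPM in C. gestroi and 4.65 and 3.88 CPM in C. formosanus, 0.156 and 0.268 CPM in Hybrid F and 4.42 and 4.18 CPM in Hybrid G. The last 2 were chosen as examples after their values were seen.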

How the data were processed

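The submitters' processing notes list Bowtie2, RSEM and DESeq2 without versions or roles, and the sources used here name neither genome build nor annotation. Total RNA was isolated by Trizol and silica columns per the labels' protocols. The deposited values are unscaled expected counts for each gene, beside a gene length. Columns of a group were identical, so 1 profile per group was used, and NA was read as 0. Expected counts were rounded, scaled by TMM over all 24 profiles, and filtered with filterByExpr by species. They were tested with edgeR 4.0.16 in R 4.3.3 (glmQLFit with robust = TRUE, glmQLFTest, tissue as block), with Benjamini-Hochberg adjustment over all tested genes. SE was taken as log2 fold change (without sign) over the root of F. CPM uses TMM-scaled totals. DESeq2 1.42.0 was an alternative. Scripts were tested on simulated counts. Floors of 3 counts cover counting error only. The SE comes from the fit and does not cover the spread between workers.

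Members and lists were chosen with earlier results of these data known. Named genes are, per direction, the 5 with the largest fold change among called genes at least 4-fold apart the same way in both tissues (mean log2 CPM at least 3, at least 10 counts in each profile), the 4 most abundant of those called and 4-fold apart, the 4 most abundant without a count in the other species, and up to 3 at least 4-fold apart in opposite directions. A rule for genes that differ between stages named none, since none was called. The fixed design spoke of TMM without saying over which profiles; all 24 were taken so that 1 scale serves every comparison.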

Additional observations from a re-analysis of the deposited data

Results flagged for a closer look

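Cfor_11675 had a species difference of opposite sign in head and body at every stage. C. gestroi was lower in the head, by log2 ratios of -3.23 (before), -2.30 (after) and -2.31 (between molts). It was higher in the body, by 2.17, 1.47 and 2.32 at these stages. Over the 3 stages the head difference less the body difference was -4.71 ± 0.86 on the log2 scale (SE), which did not pass (edgeR adjusted p = 0.416). Before the molt the head values rest on 14 counts in C. gestroi and 189 in C. formosanus.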

How the results depend on the processing

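The count of 1963 genes between the species stayed within 1.5 times with RLE scaling, DESeq2, no filter, at least 10 counts in each profile, no NA genes, thinning, TMM over the 4 profiles (chosen after seeing the data) and 12 profiles, at 1780 to 2943. Of the 1963 genes, DESeq2 also called 1926 and the 12-profile fit 1550. Genes higher in C. gestroi passed 1.5 times with DESeq2 (1376 against 841) and with a tissue term for each stage in the 12-profile fit (1340; chosen after seeing the data). With 1 pre-molt profile left out, the 12-profile fit called 451 to 1806 genes, 155 to 854 higher and 296 to 952 lower. A lone sample is then assumed to vary like the others. Sizes that agree in both tissues (1314 genes at 4-fold) came to 2863 at 2-fold (1204 higher, 1659 lower) and 430 at 16-fold (129 and 301), by construction. They came to 839 without NA genes (482 lower), where fewer genes can count, and a prior count of 10 gave 317 higher genes against 488. The stage test called 0 genes, 114 by DESeq2 and 0 to 3 with a profile left out; the cause was not tested. None of the 22 genes named for fold change, level or absence changed direction under the alternatives that tested them, 13 for most and 11 for those without a count in 1 species. These genes were chosen for large differences or absence and the alternatives use the same profiles, so a change of direction was unlikely from the start. Sizes did move, most of all for BGI_novel_G001359, whose log2 fold change ranged from 6.09 to 18.6. No paired analysis was possible because the columns of a group are identical, so replicate numbers carry no separate values.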

Other observations

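Calls were set beside those of the next ID number. The next number was also called lower in 113 of 478 BGI_novel genes called lower in C. gestroi (23.6%, against 16.8% of all next numbers), and also called higher in 40 of 254 called higher (15.7%, against 8.66%). For Cfor genes the shares were 5.94% against 5.82% for lower and 6.54% against 5.51% for higher. The number of a gene is not known to give its place in the genome, and no test was made.

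In 126 genes with at least 24 counts over all profiles, the counts were the same as those of another gene in each of the 24 profiles. Of these 64 were tested and 6 were called, Cfor_12614 and Cfor_12703 among them, each at 28.1 and 5.97 CPM in C. gestroi head and body and without a count in C. formosanus. Such genes count more than once in the numbers of genes above.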
